A study of Mus musculus with 21 samples.

Results

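The collagen chain genes encode the polypeptide chains of the collagens, the triple-helical proteins of the extracellular matrix. They were chosen by symbol alone, as every gene in the deposited counts whose mouse symbol is Col, a number, the letter a and a number. That gave 44 of 46517 genes, grouped as 11 fibrillar collagens, 8 basement membrane collagens, 9 FACIT collagens (collagens with interrupted triple helices that attach to fibrils) and 16 other collagens. The study asked how loss of Notch3, a receptor of mural cells in vessel walls, affects the adult mouse heart. RNA with a poly(A) tail from left ventricles was sequenced in bulk, from 4 control and 3 Notch3-/- mice with 3 technical libraries each, 21 libraries in all. Control mice were Notch3+/+ and the others Notch3-/-, in which lacZ was inserted in the Notch3 locus. Both groups were of the C57BL/6J strain and, by the paper, 10 to 14 months old, and no treatment is given. The sex of the sequenced mice is not given. Control mice 1 and 2 carry labels that start with X, whereas control mice 3 and 4 and all Notch3-/- mice carry labels that start with k, so X-labelled mice of the Notch3-/- genotype were absent.

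Each mouse, with its 3 technical libraries summed, was 1 replicate. Control mice 1 to 4 had totals of 3091461, 4638786, 4208205 and 3046326 counts. Totals in Notch3-/- mice 1 to 3 were 3828763, 5167869 and 5086740 counts. Levels are given as CPM, counts per 1000000 counts after scaling each mouse by its TMM factor, edgeR's correction for library composition. The targeted gene Notch3 was at 57.3, 42.1, 57.6 and 61.8 CPM in control mice 1 to 4 and at 6.01, 7.57 and 4.73 CPM in Notch3-/- mice 1 to 3. It was low in all 3 Notch3-/- mice and the groups did not overlap. Its log2 fold change was -3.16 (SE 0.23, edgeR FDR 0.00173 after Benjamini-Hochberg adjustment), and -3.29 among the k-labelled mice (edgeR FDR 0.206). The tissue label was checked against 10 cardiomyocyte markers, which all had counts and summed to 20734 to 31616 CPM across the 7 mice. That sum cannot tell the left ventricle from other parts of the heart, nor show whether other tissue was present.

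As background, fibrillar collagens assemble into the banded fibers that give tissue its tensile strength, and in the heart most of them are made by fibroblasts. Basement membrane collagens form sheets around cardiomyocytes and vessels, made largely by endothelial and mural cells, while collagen VI forms beaded filaments between the fibers and the basement membrane. Chains are hydroxylated and folded in the endoplasmic reticulum, trimmed by proteases after secretion and crosslinked by lysyl oxidases.

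The summed level of the collagen chain genes was higher in each Notch3-/- heart than in each control heart, whereas no single collagen gene passed the edgeR test. Together the 44 genes summed to 1873, 1704, 1896 and 2052 CPM in control mice 1 to 4 and to 2558, 2923 and 2847 CPM in Notch3-/- mice 1 to 3. The lowest Notch3-/- mouse, mouse 1, thus lay above control mouse 4, the highest control. The means were 1881 ± 143 CPM (SD, n = 4) and 2776 ± 192 CPM (SD, n = 3), a ratio of 1.48. As a share of all counts, the collagen chain genes took 0.174% to 0.202% in control mice and 0.245% to 0.296% in Notch3-/- mice. Bulk RNA cannot tell more or fewer cells of a type from more or less RNA per cell.

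Of the 44 genes, 42 had at least 1 count and 25 passed edgeR's expression filter, and only these 25 were tested. Of these 25 collagen genes, 20 had a log2 fold change (Notch3-/- over control) above 0, which is also true of 49.6% of the 14324 genes tested. Their median log2 fold change was 0.39, from -0.88 for Col4a6 to 3.61 for Col18a1, and the median over all genes tested was 0.00. With all 42 collagen genes that had counts, the median was 0.32. With edgeR, 0 of the 25 collagen genes were called (FDR lower than 0.05 with at least a 1.5-fold difference), against 0.00698% of all genes tested, which was Notch3 alone. At an unadjusted p lower than 0.05, edgeR had 9 collagen genes higher (7.34% of all genes tested) and 0 lower (3.05% of all genes). For 7 collagen genes every Notch3-/- mouse lay above every control mouse (4.57% of all genes tested), for 0 every one lay below (3.96% of all genes), and for 18 the groups overlapped.

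DESeq2 gave an adjusted p to 33 collagen genes and called 4, Col3a1, Col1a1, Col5a3 and Col18a1, all higher in Notch3-/- hearts. Over all genes DESeq2 called 3.53%, and 3.37% were higher. After shrinkage of the fold changes, an alternative added after seeing the data, DESeq2 called 3 of them without Col1a1 (3.09% of all genes, 3.03% higher). Limma-voom on the 21 libraries called 2, Col3a1 and Col5a3 (0.377% of all genes tested, 0.300% higher). On simulated data edgeR made the fewest false calls, DESeq2 more and limma-voom the most. The simulation used the spread between mice that edgeR had estimated, and simulated libraries of a mouse differed by counting error alone. The calls of DESeq2 and limma-voom thus remain uncertain, and the simulation cannot say how many of them were false. EdgeR on every gene with at least 1 count called 3, Col3a1, Col5a3 and Col18a1 (2.22% of all genes, 2.18% higher). Without Notch3-/- mouse 3, edgeR called 3, Col5a3, Col18a1 and Col14a1 (6.24% of all genes, 6.02% higher). From technical library 1 alone edgeR called 0 (0.427% of all genes, 0.418% higher). From technical library 2 alone edgeR called 1, Col18a1 (0.339% of all genes, 0.321% higher), and from technical library 3 alone it called 2, Col3a1 and Col18a1 (0.651% of all genes, 0.634% higher). Within the k-labelled mice edgeR tested 24 collagen genes and called 0, with a median of 0.41 and 6 higher at an unadjusted p lower than 0.05 (5.01% of all genes). There, with 2 control mice, 10 collagen genes lay above both controls in every Notch3-/- mouse (12.4% of all genes).

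**Figure D1:**
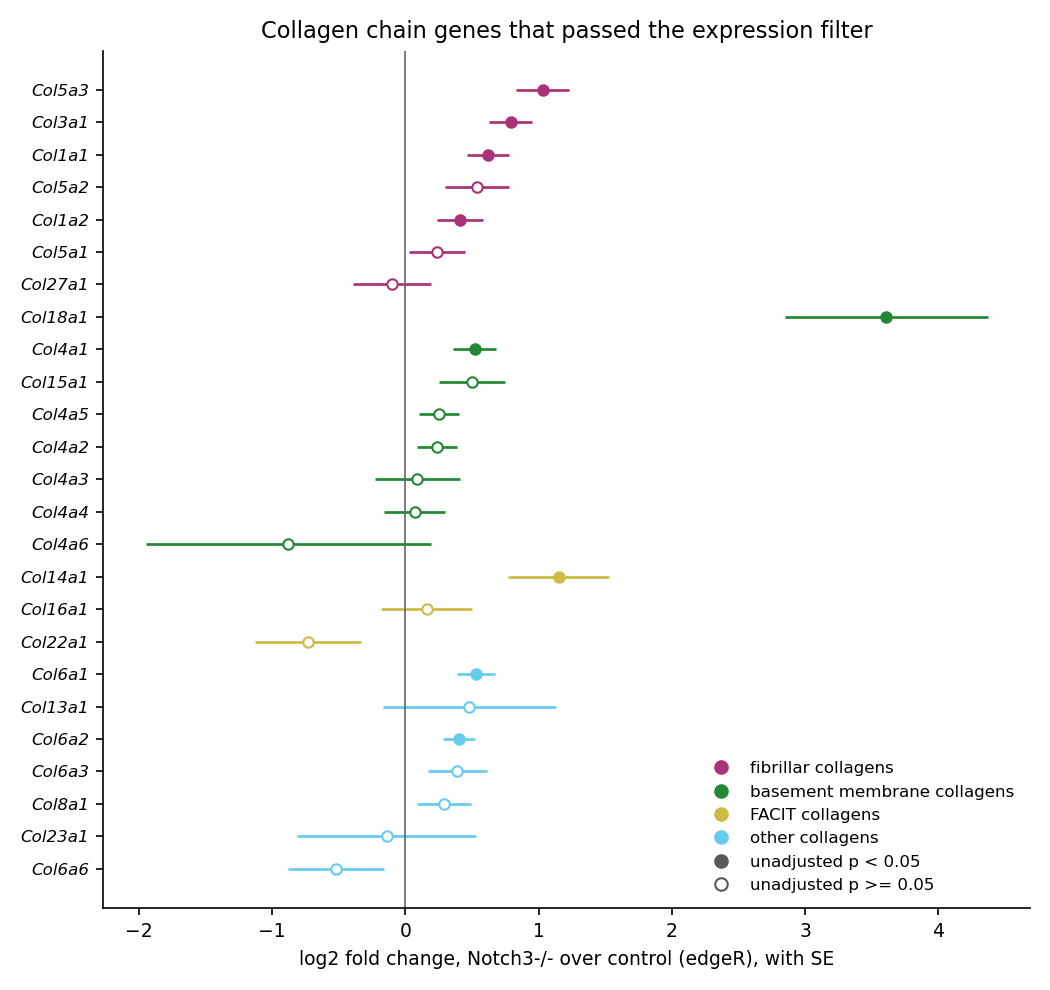
Each point is the edgeR log2 fold change (Notch3-/- over control, horizontal axis) of 1 of the 25 tested collagen chain genes, with its SE as the line, coloured by class and filled where the unadjusted p was lower than 0.05. Points lie right of 0 for 20 genes, and Col18a1 stands apart at 3.61 with the widest line of the filled points.

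The plot of fold changes by class shows that each class held genes on both sides of 0. The 9 filled points were 4 fibrillar, 2 basement membrane, 1 FACIT and 2 other collagens. The 5 genes with a log2 fold change below 0 were Col27a1 (-0.10), Col4a6 (-0.88), Col22a1 (-0.73), Col23a1 (-0.14) and Col6a6 (-0.52), and none of them was past an unadjusted edgeR p of 0.05 or called by DESeq2. The sum of the collagen levels rested on few genes. Per kilobase of exon and 1000000 counts (RPKM), which allows levels of different genes to be compared, 8 genes made up 83.5% of the summed level of the 44 in control hearts. In order of RPKM they were Col4a2 (52.8), Col4a1 (41.8), Col6a1 (30.5), Col3a1 (26.3), Col1a1 (20.8), Col6a2 (19.5), Col1a2 (11.1) and Col15a1 (8.41). The 26 lowest genes had less than 1 RPKM in control hearts. In Notch3-/- hearts the first 8 held 82.6%, with Col3a1 at 45.5 RPKM in place 3 and Col18a1 at 23.7 RPKM in place 7, from place 16 in control hearts. That mean of Col18a1 came from 15.6, 52.6 and 3.02 RPKM in Notch3-/- mice 1 to 3, and mouse 3 was close to control mouse 2 at 2.94 RPKM.

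**Figure D2:**
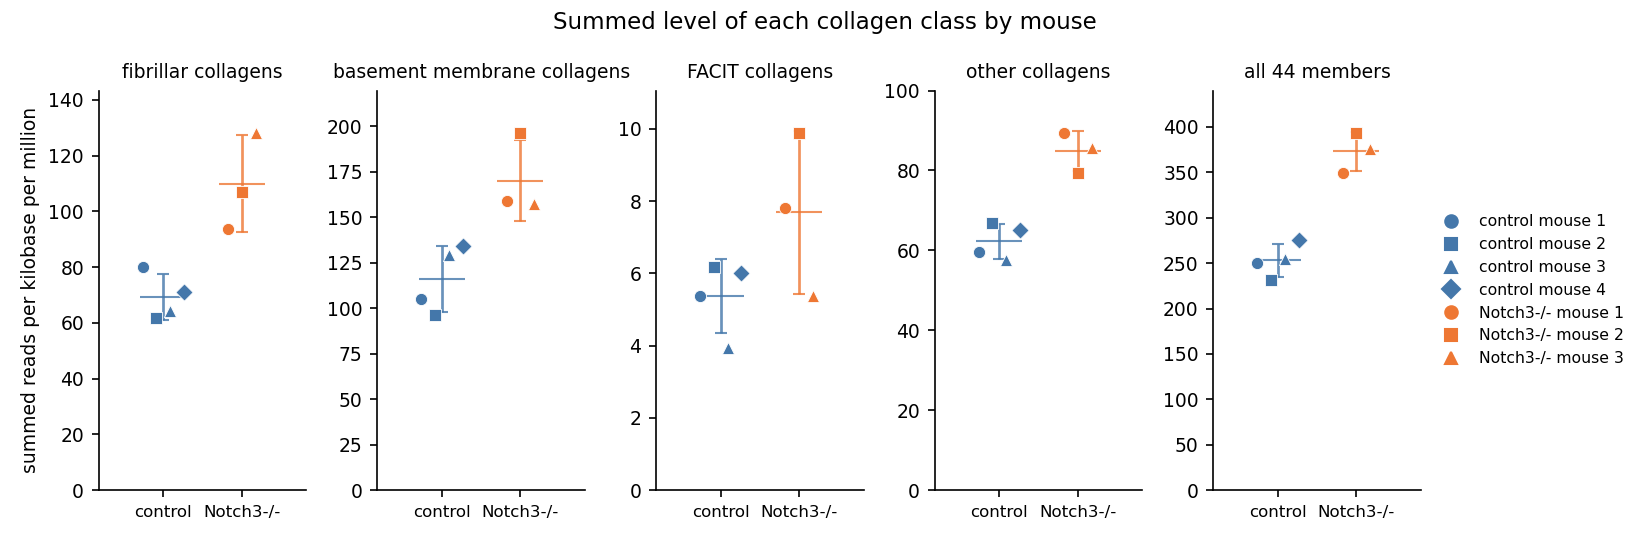
The vertical axes give the summed reads per kilobase per 1000000 counts of each collagen class and of all 44 genes, each on its own scale from 0. Each point is 1 mouse, the horizontal line is the group mean and the bars are the SD, and the groups are apart for all panels but the FACIT collagens, where Notch3-/- mouse 3 at 5.37 lies among the control mice.

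The plot of class levels shows 1 scale per class, since the classes differed in level. Basement membrane collagens had the highest summed level in control hearts, 116 ± 18.3 RPKM (SD, n = 4). Fibrillar collagens followed at 69.3 ± 8.18 RPKM (SD, n = 4) and the other collagens at 62.3 ± 4.37 RPKM (SD, n = 4), which lay within their spread of each other. FACIT collagens had 5.37 ± 1.02 RPKM (SD, n = 4). The order of the classes by mean was the same in Notch3-/- hearts, at 170 ± 22.3, 110 ± 17.4, 84.8 ± 5.01 and 7.69 ± 2.26 RPKM (SD, n = 3).

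The fibrillar collagens summed to 722, 556, 578 and 642 CPM in control mice 1 to 4 and to 829, 959 and 1151 CPM in Notch3-/- mice 1 to 3, and the groups did not overlap. Of the 11 genes 7 were tested, 6 of them had a log2 fold change above 0, and the class median was 0.54. Col3a1 (ENSMUSG00000026043, plus strand of chromosome 1 from 45311538 to 45349706 in GRCm38), the single chain of collagen III in elastic tissues and vessel walls, had the highest RPKM of the class in control hearts. The level of Col3a1 was 295, 206, 248 and 284 CPM in control mice 1 to 4 and 360, 453 and 526 CPM in Notch3-/- mice 1 to 3. All Notch3-/- mice were high, mouse 3 most of all, and the lowest of them lay above the highest control. Between the group means of 258 ± 40.3 (SD, n = 4) and 447 ± 83.1 CPM (SD, n = 3), the log2 fold change of Col3a1 was 0.79 (SE 0.16). Its adjusted p was 0.126 with edgeR and 0.00113 with DESeq2, at an unadjusted edgeR p of 0.000719. Col5a3 (ENSMUSG00000004098, minus strand of chromosome 9 from 20770050 to 20815067), a chain of collagen V, which sits inside collagen I fibrils and regulates their width, was at 22.4, 27.8, 27.8 and 41.4 CPM in control mice 1 to 4. In Notch3-/- mice 1 to 3 Col5a3 was at 64.2, 58.1 and 60.5 CPM. The 3 Notch3-/- mice were close to each other, and all lay above control mouse 4, the highest control. For Col5a3 the log2 fold change was 1.03 (SE 0.20), with an adjusted p of 0.118 from edgeR and 0.000963 from DESeq2 and an unadjusted edgeR p of 0.000469. Since both genes were higher in every Notch3-/- mouse, the 250 bases before their RefSeq starts are shown 5′ to 3′ on the strand of the gene, from build GRCm38.p6. The Col3a1 stretch is chr1:45311288-45311537 on the plus strand and the Col5a3 stretch chr9:20815068-20815317 on the minus strand. Capitals mark the 3 letter strings searched on both strands. These were CCAAT with its reverse complement ATTGG, then GGGCGG with its reverse complement CCGCCC, then TATAAA with its reverse complement TTTATA.
Col3a1: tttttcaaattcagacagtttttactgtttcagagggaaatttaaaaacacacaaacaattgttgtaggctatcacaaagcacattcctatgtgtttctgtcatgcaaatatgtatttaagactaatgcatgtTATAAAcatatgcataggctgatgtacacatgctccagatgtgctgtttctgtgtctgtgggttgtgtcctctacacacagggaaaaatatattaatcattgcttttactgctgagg
Col5a3: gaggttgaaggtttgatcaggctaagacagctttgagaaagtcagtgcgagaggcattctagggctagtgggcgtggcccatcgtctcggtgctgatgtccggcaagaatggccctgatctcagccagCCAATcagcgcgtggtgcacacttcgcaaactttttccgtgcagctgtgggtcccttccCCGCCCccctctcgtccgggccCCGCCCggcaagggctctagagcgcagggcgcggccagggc
The Col3a1 stretch held TATAAA 117 bases before the start, and the Col5a3 stretch held CCAAT 122 bases and CCGCCC 63 and 41 bases before its start. A match describes letters and not a binding site.

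Col1a1 (ENSMUSG00000001506), a chain of collagen I, the main collagen of scar and tendon, was at 167, 126, 127 and 127 CPM in control mice 1 to 4 and 178, 203 and 248 CPM in Notch3-/- mice 1 to 3. Control mouse 1 was high among the controls, and the lowest Notch3-/- mouse lay just above it. Col1a1 had a log2 fold change of 0.62 (SE 0.16, adjusted p 0.200 from edgeR and 0.0148 from DESeq2). Col1a2, the partner chain of collagen I, was at 161, 135, 120 and 137 CPM in control mice and 151, 174 and 226 CPM in Notch3-/- mice. Here Notch3-/- mouse 1 lay below control mouse 1, so the groups overlapped, and the log2 fold change was 0.41 (SE 0.17, edgeR FDR 0.437 after Benjamini-Hochberg adjustment). For Col1a2 it was 0.23 without Notch3-/- mouse 3, 0.71 without mice 1 and 2, 0.02 and 0.69 from technical libraries 1 and 2 alone, and 0.73 with the hepatocyte covariate described below, so its size depended on the mice and libraries used. Per kilobase, the Col1a1 to Col1a2 ratio of control mice 1 to 4 was 1.96, 1.78, 2.00 and 1.76, and that of Notch3-/- mice 1 to 3 was 2.24, 2.21 and 2.09. The ratio was higher in each Notch3-/- mouse than in each control, with means of 1.87 ± 0.124 (SD, n = 4) and 2.18 ± 0.0835 (SD, n = 3). The ratio of Col3a1 to Col1a1 overlapped between groups, with a control mean of 1.27 ± 0.176 (SD, n = 4) and a Notch3-/- mean of 1.42 ± 0.0726 (SD, n = 3). Among the k-labelled mice the log2 fold changes were 0.74 for Col3a1, 0.72 for Col1a1, 0.51 for Col1a2 and 0.81 for Col5a3. The other fibrillar genes that were tested, Col5a1, Col5a2 and Col27a1, overlapped between groups, with log2 fold changes of 0.24, 0.54 and -0.10. The 4 that were not tested (Col11a2, Col24a1, Col11a1 and Col2a1), of which Col2a1 and the Col11 chains are cartilage collagens, had at most 34 counts summed over a group. Col2a1 had 0 counts in control mice, which allows up to 0.200 CPM (3 counts of the group's total), and 2 counts in Notch3-/- mice. Because PCR copies cannot be told from separate molecules here, such limits cover counting error only.

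**Figure D3:**
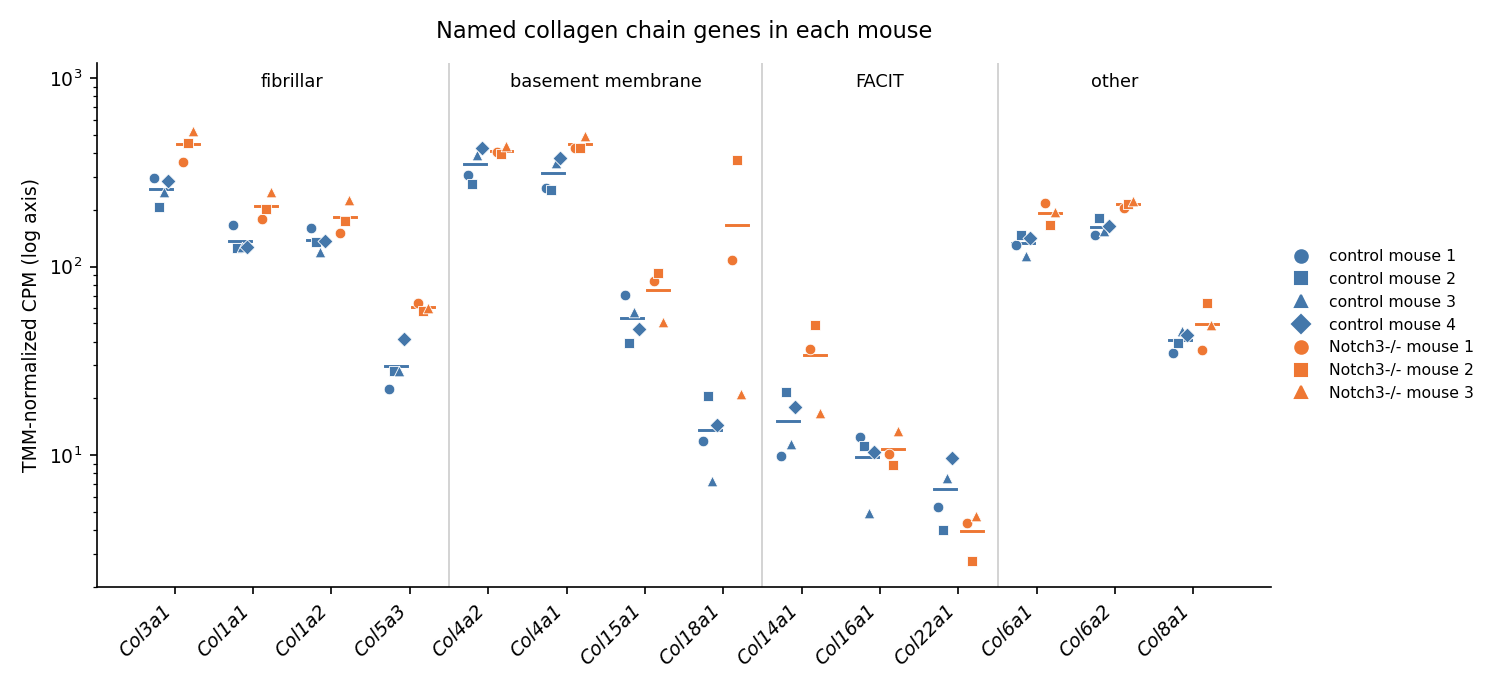
The vertical axis is the TMM-normalized CPM on a log scale and each point is 1 mouse for 14 named collagen chain genes, with horizontal bars at the group means. The groups are apart for Col3a1, Col1a1, Col5a3, Col4a1, Col18a1, Col6a1 and Col6a2, and Notch3-/- mouse 3 lies far below the other Notch3-/- mice for Col18a1 (21.2 against 109 and 369 CPM).

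The plot of named genes by mouse shows the spread behind each mean. The basement membrane collagens summed to 731, 675, 903 and 936 CPM in control mice 1 to 4 and to 1110, 1379 and 1101 CPM in Notch3-/- mice 1 to 3, without overlap. All 8 genes were tested, 7 had a log2 fold change above 0, and the class median was 0.25. Col4a1 (ENSMUSG00000031502, minus strand of chromosome 8 from 11198423 to 11312826), a chain of the collagen IV network of vessel walls, was at 261, 254, 355 and 378 CPM in control mice and 425, 425 and 492 CPM in Notch3-/- mice. The X-labelled control mice 1 and 2 were lowest, and all Notch3-/- mice lay above all controls. Col4a1 thus had a log2 fold change of 0.52 (SE 0.16, adjusted p 0.280 from edgeR and 0.0659 from DESeq2), and 0.28 among the k-labelled mice. Col4a2 (ENSMUSG00000031503, plus strand from 11312805 to 11449287), the partner chain, was at 307, 274, 393 and 424 CPM in control mice and 406, 398 and 435 CPM in Notch3-/- mice. The groups overlapped, the log2 fold change was 0.24 (SE 0.15, edgeR FDR 0.622 after Benjamini-Hochberg adjustment), and it was 0.01 among the k-labelled mice, 0.14 without control mouse 2, 0.02 from technical library 1 alone and 0.51 with the hepatocyte covariate. The Col4a1 to Col4a2 ratio per kilobase of control mice 1 to 4 was 0.755, 0.823, 0.801 and 0.790, and that of Notch3-/- mice 1 to 3 was 0.929, 0.946 and 1.00. The ratio was higher in each Notch3-/- mouse than in each control mouse. Both genes start from the same stretch on opposite strands and their first exons share 22 bases, shown here on the plus strand of GRCm38.p6 at chr8:11312805-11312826 with GGGCGG in capitals, from RefSeq.
Col4a1 and Col4a2: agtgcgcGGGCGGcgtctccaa
The sources do not say if counting was strand-specific, and reads from these shared bases could be assigned to either gene.

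Col18a1 (ENSMUSG00000001435, minus strand of chromosome 10 from 77052178 to 77166548), the chain of collagen XVIII, a basement membrane heparan sulfate proteoglycan whose end fragment is endostatin, had the highest fold change of the 25. The level of Col18a1 was 11.9, 20.7, 7.29 and 14.4 CPM in control mice 1 to 4 and 109, 369 and 21.2 CPM in Notch3-/- mice 1 to 3. Notch3-/- mice 1 and 2 were far above every control, and mouse 3 was next to control mouse 2. Per technical library, Notch3-/- mouse 3 ranged from 4.94 to 26.3 CPM and control mouse 2 from 6.21 to 32.1 CPM. The log2 fold change of Col18a1 was 3.61 (SE 0.76, adjusted p 0.133 from edgeR and 0.00566 from DESeq2). It was 4.13 without Notch3-/- mouse 3 (edgeR FDR 0.000304), 2.24 without Notch3-/- mouse 2 and 0.64 without Notch3-/- mice 1 and 2. The 232 bases shown, chr10:77166549-77166780 on the minus strand of GRCm38.p6 and from RefSeq, precede the annotated gene and are given because Col18a1 stood apart from the other genes. RefSeq gives Col18a1 another start inside the gene, whose 250 bases before the start held none of the 3 strings and are not shown because they lie within another transcript.
Col18a1: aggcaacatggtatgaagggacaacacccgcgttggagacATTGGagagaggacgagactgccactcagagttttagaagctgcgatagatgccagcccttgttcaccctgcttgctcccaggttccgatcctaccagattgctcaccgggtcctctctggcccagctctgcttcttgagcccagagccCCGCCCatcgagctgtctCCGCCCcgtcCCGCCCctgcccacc
Capitals mark ATTGG 210 bases and CCGCCC 61, 43 and 33 bases before the RefSeq start. Col15a1, the close relative of Col18a1 in the basement membrane zone of vessels and muscle, was at 70.5, 39.4, 57.2 and 46.4 CPM in control mice and 83.6, 92.1 and 50.7 CPM in Notch3-/- mice. Mice 1 and 2 were again the high Notch3-/- mice, and mouse 3 lay within the controls. For Col15a1 the log2 fold change was 0.50 (SE 0.25, edgeR FDR 0.512 after Benjamini-Hochberg adjustment), and it was 0.33 without Notch3-/- mouse 2 and 0.86 and 0.19 from technical libraries 1 and 3 alone. The other collagen IV chains, of which Col4a3, Col4a4 and Col4a5 form the network of the kidney glomerulus, overlapped between groups, with log2 fold changes of 0.09 for Col4a3, 0.07 for Col4a4, 0.25 for Col4a5 and -0.88 for Col4a6 (SE 1.07).

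FACIT collagens were low throughout, at 36.9, 41.5, 28.0 and 43.1 summed CPM in control mice 1 to 4 and 55.7, 69.2 and 38.2 CPM in Notch3-/- mice 1 to 3. The groups overlapped through Notch3-/- mouse 3. Of the 9 genes 3 were tested, with a median log2 fold change of 0.16, and over all 8 with counts the median was -0.33, opposite in sign. Col14a1 (ENSMUSG00000022371), which binds fibril surfaces and regulates their growth, was at 9.88, 21.5, 11.5 and 18.0 CPM in control mice and 36.6, 48.8 and 16.8 CPM in Notch3-/- mice. Notch3-/- mice 1 and 2 were above every control and mouse 3 was within the control range. The log2 fold change of Col14a1 was 1.15 (SE 0.38, adjusted p 0.322 from edgeR and 0.0729 from DESeq2), and 1.47 without Notch3-/- mouse 3 (edgeR FDR 0.0182) and 0.14 without mice 1 and 2. Col16a1, which is found beside fibrils and microfibrils, was at 12.5, 11.2, 4.94 and 10.4 CPM in control mice and 10.1, 8.83 and 13.4 CPM in Notch3-/- mice. These groups overlapped, and the log2 fold change of 0.16 (SE 0.34) lay below 0 when some single mice were left out, at -0.08 without control mouse 3 and -0.04 without Notch3-/- mouse 3. Its other values ran from -0.18 with technical library 1 alone to 0.51 in the k-labelled mice. Col22a1, a collagen of tissue junctions such as that of muscle and tendon, was at 5.27, 4.00, 7.53 and 9.69 CPM in control mice and 4.37, 2.73 and 4.73 CPM in Notch3-/- mice. The Notch3-/- mice were at the low end and overlapped with control mouse 2, and the log2 fold change was -0.73 (SE 0.40, edgeR FDR 0.554 after Benjamini-Hochberg adjustment). That of Col22a1 was -1.12 among the k-labelled mice, -0.47 without Notch3-/- mice 1 and 2, -0.04 from technical library 3 alone and -0.02 with the hepatocyte covariate. The 6 FACIT genes that were not tested (Col20a1, Col9a3, Col9a2, Col12a1, Col19a1 and Col9a1) had at most 37 counts summed over a group. Col9a1, a cartilage collagen, had 0 counts in all 21 libraries, which allows up to 0.200 CPM in control and 0.213 CPM in Notch3-/- hearts. Col9a2 and Col19a1 had 6 and 3 counts in control mice and 0 in Notch3-/- mice, with the same limit of 0.213 CPM.

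The other collagens summed to 59.6, 66.8, 57.6 and 65.1 RPKM in control mice 1 to 4 and to 89.3, 79.4 and 85.7 RPKM in Notch3-/- mice 1 to 3, with no overlap. Of the 16 genes 7 were tested, 5 had a log2 fold change above 0, and the class median was 0.39. Col6a1 (ENSMUSG00000001119), a chain of collagen VI, which links cells to the fibers around them, was at 131, 148, 114 and 142 CPM in control mice and 218, 167 and 194 CPM in Notch3-/- mice. The Notch3-/- mice were all above control mouse 2, the highest control. The log2 fold change of Col6a1 was 0.53 (SE 0.14, adjusted p 0.213 from edgeR), and although its adjusted p from DESeq2 was 0.0309 its fold change was less than 1.5. Col6a2, which joins Col6a1 in the same heterotrimer, was at 148, 182, 154 and 164 CPM in control mice and 204, 216 and 223 CPM in Notch3-/- mice. Its levels were tight within each group and did not overlap, with a log2 fold change of 0.40 (SE 0.12, adjusted p 0.267 from edgeR and 0.0729 from DESeq2). Among the k-labelled mice the log2 fold changes were 0.58 for Col6a1 and 0.42 for Col6a2. Col6a3, the third chain of the heterotrimer, overlapped between groups at a log2 fold change of 0.39, and the ratios per kilobase of Col6a1 to Col6a2 and to Col6a3 overlapped as well. So did that of Col5a1 to Col5a2, with a control mean of 1.16 ± 0.223 (SD, n = 4) and a Notch3-/- mean of 1.04 ± 0.426 (SD, n = 3). Col8a1, a short-chain collagen of vessel walls, was at 34.9, 39.4, 45.6 and 43.1 CPM in control mice and 36.1, 64.4 and 48.8 CPM in Notch3-/- mice. Notch3-/- mouse 1 lay near the lowest control, and the log2 fold change was 0.29 (SE 0.20, edgeR FDR 0.655 after Benjamini-Hochberg adjustment). Single mice moved that of Col8a1, to 0.47 without Notch3-/- mouse 1 and 0.06 without Notch3-/- mouse 2, and it was 0.16 among the k-labelled mice. The transmembrane collagens Col13a1 and Col23a1 and the collagen VI chain Col6a6 had log2 fold changes of 0.48, -0.14 and -0.52 and overlapped between groups. The 9 that were not tested (Col10a1, Col26a1, Col17a1, Col28a1, Col7a1, Col25a1, Col6a5, Col8a2 and Col6a4) had at most 31 counts summed over a group. Among them are the growth plate collagen Col10a1 and the skin collagens Col7a1 and Col17a1. Col6a4 had 0 counts in every library, with limits of 0.200 CPM in control and 0.213 CPM in Notch3-/- hearts. Col8a2 had 0 counts in control mice and 1 in Notch3-/- mice, and Col6a5 had 2 counts in control mice and 0 in Notch3-/- mice, with the same limits.

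Technical library 1 gave smaller differences for several of these genes. Of the 14 named collagen genes 13 were tested with it alone, and for 10 the log2 fold change turned direction or moved by more than 1.5 times. From that library alone Col3a1 and Col5a3 each had 0.45, Col1a1 had 0.23, Col4a1 0.24, Col6a1 0.26 and Col6a2 0.21, while Col18a1 had 2.99 and Col14a1 1.15. Col15a1 and Col8a1 had larger values there, 0.86 and 0.41, against 0.50 and 0.29 from all libraries. Technical library 1 of control mouse 4 had 464390 counts, the fewest of any library, and its part in these values was not tested. Technical library 2 alone moved 2 of 13 and technical library 3 alone 4 of 14, among them Col6a1 at 0.88. Shrinkage by DESeq2 moved 11 of 14 toward 0 by more than 1.5 times, and the largest of these was then 0.27 for Col1a1. Col3a1, Col5a3 and Col18a1 moved toward 0 by less, to 0.65, 0.91 and 3.08.

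The 44 genes lie on 15 chromosomes, and 18 of them are in 10 pairs of neighbours less than 1000000 bases apart. Both genes were tested in 6 of these pairs. Col3a1 and Col5a2 are 24614 bases apart with log2 fold changes of 0.79 and 0.54, and Col6a2 and Col6a1 are 85161 bases apart with 0.40 and 0.53. Col18a1 lies 326009 bases from Col6a1, with log2 fold changes of 3.61 and 0.53. Col4a3 and Col4a4, 71 bases apart, had 0.09 and 0.07, whereas Col4a6 and Col4a5, 1308 bases apart, had -0.88 and 0.25. Col11a2, on the chromosome of the targeted gene and 1872584 bases from Notch3, had too few counts to be tested. RefSeq promoters were found for 35 of the 44 collagen genes, 3 of them with 2 starts, which gave 38 windows of 250 bases before the start. CCAAT or its reverse complement was in 13 of 38 collagen windows (34.2%) and in 33.8% of all 32851 windows of that length. GGGCGG or its reverse complement was in 22 of 38 (57.9%) against 32.7% of all, and TATAAA or its reverse complement in 5 of 38 (13.2%) against 12.4%. The strings can share letters with each other where they meet, as in CCGCCC followed by AAT, and the shares were not tested. Besides the pair Col4a1 and Col4a2, some tested collagen genes share exon bases with other annotated genes. Col4a3 shares 563 with C430014B12Rik, Col3a1 shares 141 with the microRNA gene Gm47302, Col5a1 shares 113 with Gm13372 and 99 with 2810430I11Rik, and Col6a6 shares 63 with Gm38314. Col4a2 also shares 43 with Gm15419, Col22a1 shares 16 with Gm16308 and Col15a1 shares 14 with Gm12426, and reads there could be counted on either gene.

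Other genes of the collagen pathway were read from lists of known roles. Neither edgeR nor DESeq2 called any of the listed genes, and at an unadjusted p lower than 0.05 edgeR had 3 higher and 3 lower of 45 tested over the 5 lists, where 7.34% of all genes tested were higher and 3.05% lower. Of 19 genes for folding and modification of the chains 18 were tested, with a median log2 fold change of 0.10, or 0.06 over all 19. P4hb, a subunit of prolyl 4-hydroxylase, was the most abundant and stood at 463, 450, 447 and 445 CPM in control mice and 573, 910 and 414 CPM in Notch3-/- mice. Notch3-/- mice 1 and 2 were high, and mouse 3 was below all controls, at a log2 fold change of 0.49 (SE 0.22) that was 0.71 without Notch3-/- mouse 3 (edgeR FDR 0.0360), 0.13 without mouse 2, -0.12 without mice 1 and 2 and -0.31 with the hepatocyte covariate. Of 8 genes for cleavage of procollagen ends 7 were tested, with a median of 0.17, and the most abundant was Pcolce, an enhancer of that cleavage (log2 fold change 0.23). Bmp1, the protease that removes the carboxyl end, was at 46.1, 48.5, 39.8 and 54.8 CPM in control mice and 63.4, 92.3 and 48.6 CPM in Notch3-/- mice. Mouse 3 was again within the controls, and the log2 fold change of Bmp1 was 0.53 (SE 0.22, edgeR FDR 0.445 after Benjamini-Hochberg adjustment). It was 0.24 without Notch3-/- mouse 2, 0.04 without mice 1 and 2, -0.13 with the covariate, and 1.07, 0.28 and 0.30 from technical libraries 1, 2 and 3 alone. Tll2, a relative of Bmp1, was at 2.63, 3.58, 1.65 and 5.34 CPM in control mice and 0, 0.631 and 1.13 CPM in Notch3-/- mice. Adamts14, which removes the amino end, was at 5.93, 4.00, 2.59 and 5.01 CPM in control mice and 1.09, 2.52 and 1.13 CPM in Notch3-/- mice. Both lay below every control in all Notch3-/- mice at low counts, with log2 fold changes of -2.30 (SE 0.71) and -1.42 (SE 0.47), which were -0.35 and -0.10 after shrinkage. Adamts14 had -2.15 with the covariate, and Tll2 had -1.50 without Notch3-/- mice 1 and 2.

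All 5 lysyl oxidase genes for crosslinking were tested, with a median log2 fold change of 0.24, and the most abundant, Loxl1, had 0.24. Of 9 small leucine-rich proteoglycans, which coat collagen fibrils, 8 were tested with a median of 0.13, Kera was at 0 in all libraries, and the most abundant was Ogn (log2 fold change -0.23). Dcn, or decorin, was at 582, 508, 494 and 456 CPM in control mice and 431, 395 and 452 CPM in Notch3-/- mice. All Notch3-/- mice were below all controls, with a log2 fold change of -0.26 (SE 0.11, edgeR FDR 0.476 after Benjamini-Hochberg adjustment), opposite in sign to Col3a1 and Col1a1, whose fibrils decorin binds. For Dcn it was -0.16 among the k-labelled mice, -0.17 without Notch3-/- mice 1 and 2 and also with the covariate, and -0.08 from technical library 1 alone. Of 10 collagen receptor genes 7 were tested with a median of 0.42, but over all 10, each with counts, the median was 0.03. Itgb1, the shared integrin chain and most abundant, had a log2 fold change of 0.04. Ddr1, a receptor tyrosine kinase for collagen on the chromosome of Notch3, was at 28.6, 17.7, 25.9 and 24.4 CPM in control mice and 39.9, 31.5 and 34.8 CPM in Notch3-/- mice. The groups did not overlap, with a log2 fold change of 0.56 (SE 0.20, edgeR FDR 0.361 after Benjamini-Hochberg adjustment) that was 0.27 and 0.89 from technical libraries 1 and 2 alone. After shrinkage P4hb, Bmp1 and Ddr1 had 0.09, 0.08 and 0.09, and Dcn had -0.09.

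The 3 Notch3-/- hearts differed from each other in markers of hepatocytes, the main cells of the liver. Of 16 hepatocyte markers 15 were found in the counts. The other was listed as Tf, the human symbol of the gene called Trf in mice, and was therefore not matched. Of those found, all 15 had counts in control hearts too. They summed to 53.3, 161, 13.2 and 27.4 CPM in control mice 1 to 4 and to 6322, 11628 and 146 CPM in Notch3-/- mice 1 to 3. Alb, the most abundant, was at 22.4, 81.1, 2.35 and 10.7 CPM in control mice and 1705, 1875 and 66.9 CPM in Notch3-/- mice. Notch3-/- mice 1 and 2 were high, and mouse 3 lay within the control range for the sum and for Alb. For 7 of the 14 hepatocyte markers tested, however, all 3 Notch3-/- mice lay above every control, mouse 3 included (4.57% of all genes tested). All 14 that were tested were higher in Notch3-/- hearts at an unadjusted edgeR p lower than 0.05 (7.34% of all genes tested). Of the hepatocyte markers 0 were called by edgeR (0.00698% of all genes), and DESeq2 called 15 as higher (3.37% of all genes). Markers of hepatic stellate and liver sinusoidal cells, 9 genes of which Hhip was at 0 and Ecm1 most abundant, summed to 169, 150, 114 and 128 CPM in control mice and 208, 316 and 156 CPM in Notch3-/- mice. Of these 5 were tested, 3 were higher at an unadjusted edgeR p lower than 0.05, 0 were called by edgeR, and DESeq2 called 4 as higher, beside the same shares over all genes.

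**Figure D4:**
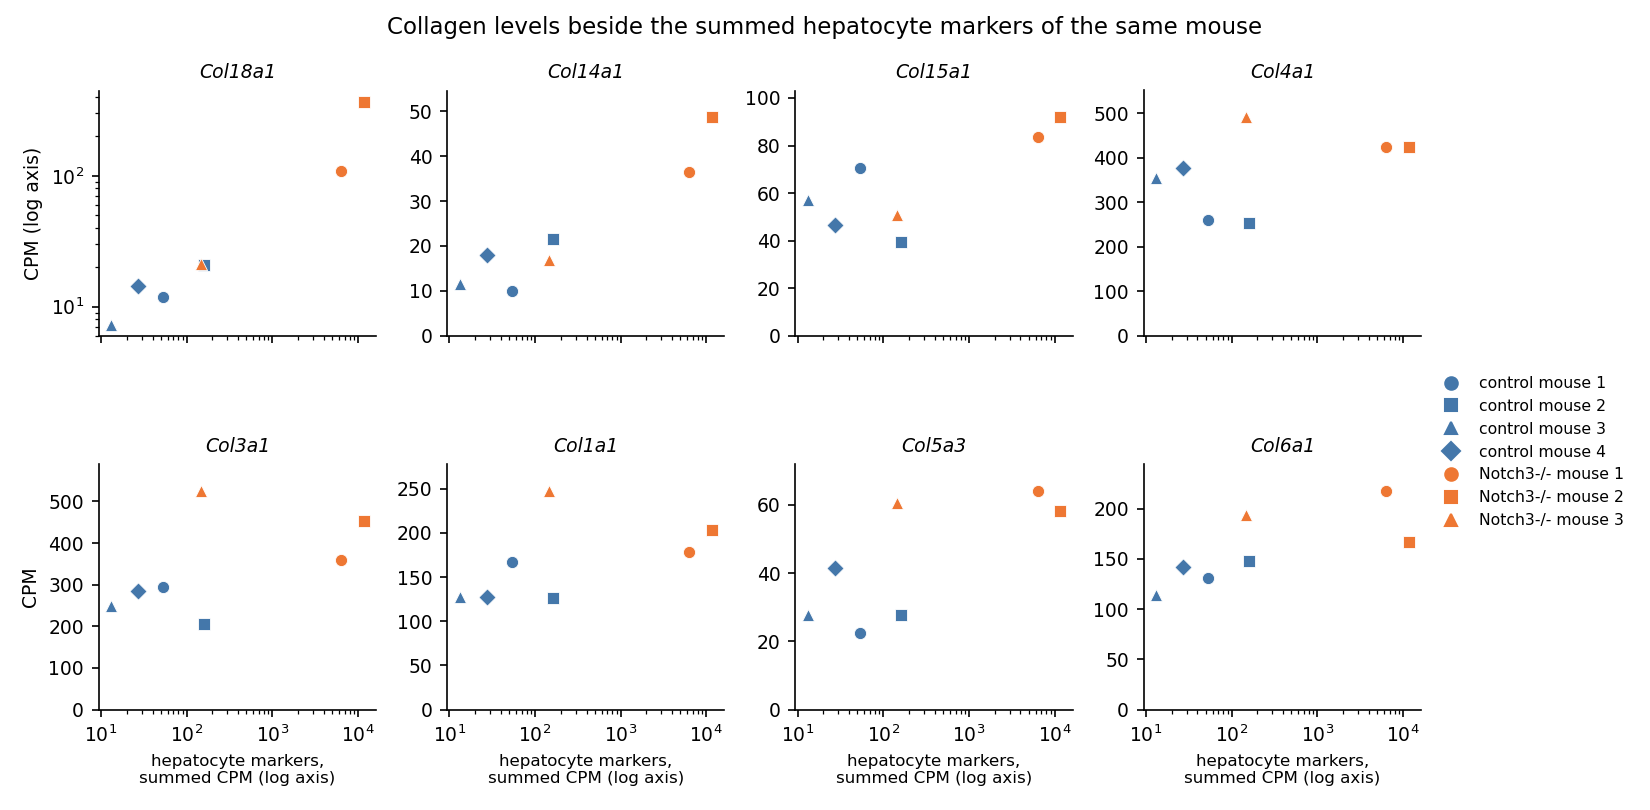
The horizontal axes give the summed CPM of the hepatocyte markers on a log scale and the vertical axes the CPM of 8 collagen chain genes, on a log scale for Col18a1, with 1 point per mouse. Col18a1, Col14a1 and Col15a1 are high in Notch3-/- mice 1 and 2 and not in mouse 3, whereas Col3a1, Col1a1 and Col4a1 are highest in Notch3-/- mouse 3 (526, 248 and 492 CPM).

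The plot of collagen levels beside hepatocyte markers separates genes by what Notch3-/- mouse 3 does. When Notch3-/- mice 1 and 2 were left out, an alternative added after seeing the data in which the lone mouse is assumed to vary like the controls, the log2 fold changes were 1.03 for Col3a1, 0.87 for Col1a1, 1.02 for Col5a3 and 0.66 for Col4a1. Each was larger than with all mice except Col5a3, which had 1.03 with all mice. In the same comparison Col18a1 had 0.64, Col14a1 had 0.14 and Col15a1 had -0.07. A further fit used a hepatocyte score as a covariate, which was the mean log2 CPM of the hepatocyte markers in each mouse. All 14 tested markers were higher in Notch3-/- hearts, so with 7 mice this score and genotype cannot be well separated. With the score as a covariate, the log2 fold changes were 1.15 for Col3a1, 0.90 for Col1a1, 1.10 for Col5a3 and 0.85 for Col4a1. None of these was called in either alternative, with an edgeR FDR of 0.684 for Col3a1 and 0.885 for the others without mice 1 and 2 and of 0.999 for all 4 with the covariate. With that covariate those of Col18a1 (-0.22), Col14a1 (-0.24) and Col15a1 (-0.10) were below 0. For Col6a1 and Col6a2 the values were 0.54 and 0.46 without mice 1 and 2 and 0.50 and 0.40 with the covariate. None of these 5 was called either, at an edgeR FDR of 0.999 each with the covariate and, without mice 1 and 2, of 0.885 for Col6a1 and Col6a2, 0.887 for Col18a1, 0.980 for Col14a1 and 0.986 for Col15a1.

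**Figure D5:**
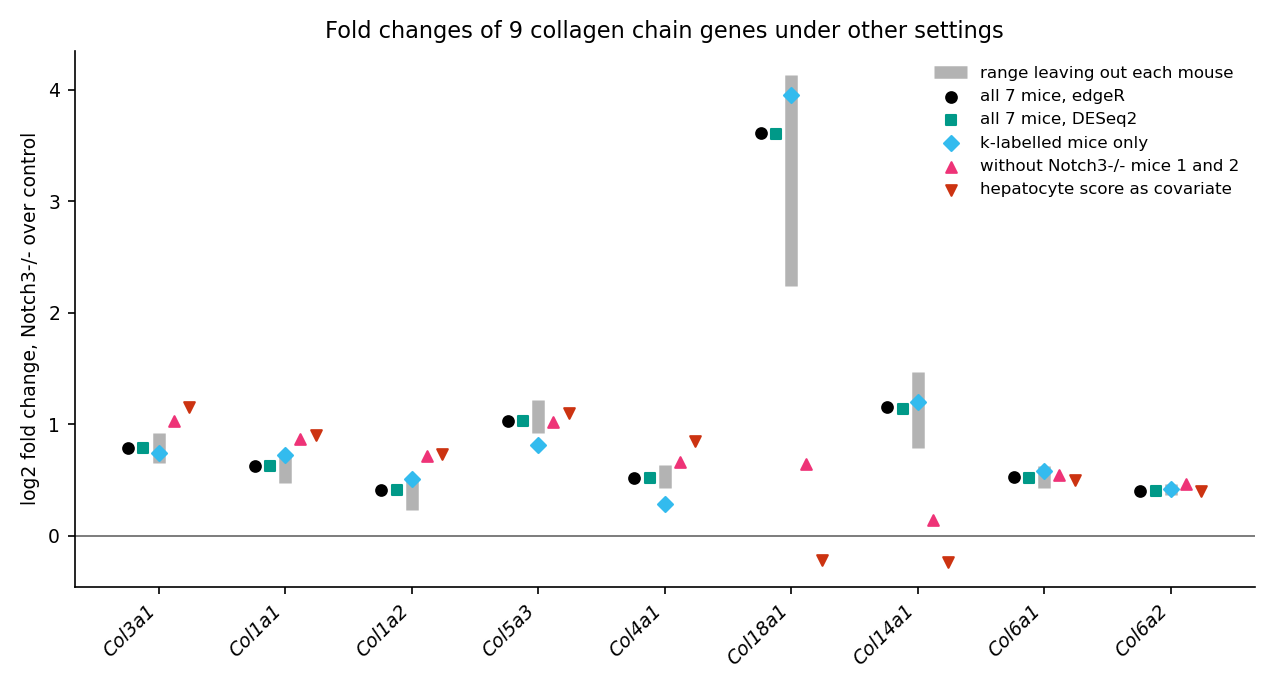
The vertical axis is the log2 fold change of 9 collagen chain genes with edgeR and DESeq2 on all 7 mice, with the k-labelled mice only, without Notch3-/- mice 1 and 2 and with a hepatocyte score as a covariate, and the grey bars span the values with each mouse left out in turn. Symbols stay above 0 for 7 genes, and those of Col18a1 run from -0.22 to 3.95 and those of Col14a1 from -0.24 to 1.20.

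The plot of fold changes by setting shows the same for the 9 genes with an unadjusted p lower than 0.05. Levels of other cell types stood beside these as follows, and their part in the collagen levels was not tested. Of all genes tested, 7.34% were higher and 3.05% lower at an unadjusted edgeR p lower than 0.05. EdgeR called 0.00698% of all genes and DESeq2 3.53%. The 10 fibroblast markers, most abundant Gsn, summed to 2484, 2105, 1878 and 1870 CPM in control mice and 2143, 1819 and 1810 CPM in Notch3-/- mice, with a median log2 fold change of -0.03 and 1 higher at an unadjusted edgeR p lower than 0.05. They overlapped between groups, unlike the fibrillar collagens, but Gsn alone made up 1296 of their mean 2084 CPM in control hearts. The 8 activated fibroblast markers, most abundant Acta2, summed to 262, 277, 217 and 188 CPM in control mice and 389, 258 and 234 CPM in Notch3-/- mice, and 7 were tested with a median of 0.36, of which 2 were higher and 1 lower at an unadjusted edgeR p lower than 0.05. The 10 endothelial markers, most abundant Esam, summed to 1438, 1212, 1379 and 1651 CPM in control mice and 1501, 1579 and 1523 CPM in Notch3-/- mice, with a median of 0.01. Both lists overlapped between groups. Acta2, the paper's marker of vascular smooth muscle, made up 125 of the mean 236 CPM of the activated fibroblast list in control hearts. The 10 mural cell markers, most abundant Des and with Notch3 among them, summed to 2920, 2516, 2611 and 2952 CPM in control mice and 2485, 2021 and 2215 CPM in Notch3-/- mice. All Notch3-/- mice were below all controls, and the 9 tested genes had a median of -0.34 with 9 below 0, and over all 10 the median was -0.51. Of these, 5 were lower at an unadjusted edgeR p lower than 0.05, and edgeR called 1, Notch3. DESeq2 called 2 of the 10 as lower. Des, which made up most of that sum per kilobase, is expressed by cardiomyocytes too. The 10 cardiomyocyte markers, most abundant Actc1, summed to 31616, 22973, 26577 and 30293 CPM in control mice and 31213, 20734 and 22348 CPM in Notch3-/- mice, with a median of -0.24 and 10 of 10 below 0, of which 0 had an unadjusted edgeR p lower than 0.05 or a call by edgeR or DESeq2. The 5 mesothelial markers, most abundant Upk3b in control hearts, summed to 10.5, 14.5, 51.5 and 58.1 CPM in control mice and 35.5, 35.1 and 106 CPM in Notch3-/- mice, low in the X-labelled mice and highest in Notch3-/- mouse 3. The 5 Schwann cell markers, most abundant Cnp, summed to 75.7, 75.0, 36.5 and 57.1 CPM in control mice and 38.0, 60.2 and 61.5 CPM in Notch3-/- mice. The 4 adipocyte markers, most abundant Adipoq in control hearts, summed to 0.329, 1.26, 0 and 8.35 CPM in control mice and 3.01, 19.1 and 0 CPM in Notch3-/- mice, and none was tested. Cardiomyocyte, mesothelial, Schwann cell and adipocyte sums overlapped between groups, and in these lists and those of fibroblast, activated fibroblast, endothelial and mural cells all markers had at least 1 count.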

How the data were processed

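The deposited table holds unnormalized counts of reads per Ensembl gene. The submitters' processing notes name mm10 and CASAVA, and the aligner and counting program are not given in the sources used here. The 92 ERCC spike-in lines held 34 counts (0.00012% of all) and were left out. Positions and exon lengths came from GENCODE vM21. Genotypes were compared in R 4.3.3 with edgeR 4.0.16 (filterByExpr, TMM, quasi-likelihood test, Benjamini-Hochberg over all genes tested), and with DESeq2 1.42.0 (ashr 2.2.63) and limma 3.58.1 as alternatives. The steps were tested on simulated data, with the dispersions of the genes capped, where edgeR made the fewest false calls, DESeq2 more and limma-voom on the 21 libraries the most. That order held with lower caps and with none, while the numbers of false calls differed. The dispersions were those that edgeR estimated from these hearts, and the simulated libraries of a mouse differed by counting error alone. The order therefore cannot decide how many calls of each tool were false in the real counts.

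Members, gene lists (4 collagen classes, 5 pathway lists, 10 cell type lists) and tests were chosen with earlier results of these data known. Values per mouse are given for collagen genes with an unadjusted p lower than 0.05 in edgeR or a call by DESeq2 and for the 3 with the highest RPKM in control hearts in each class, for pathway genes with an unadjusted p lower than 0.05, for Notch3 and for Alb. The most abundant gene of each other list is named. Other collagen genes named by their fold change or count fall outside this rule.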

Additional observations from a re-analysis of the deposited data

Results flagged for a closer look

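In 55 groups of 4 control values, 3 had 1 mouse far from the others by Dixon's criterion, and chance alone marks about 1 in 20 groups. Col1a1 was at 167 CPM in control mouse 1, against 126 to 127 CPM in the other control mice. Ogn was at 213 CPM in control mouse 4, against 256 CPM in each of the others. The adipocyte markers summed to 8.35 CPM in control mouse 4, against 0 to 1.26 CPM in the others.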

How the results depend on the processing

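Totals were at most 5167869 counts a mouse, and 19 of the 44 collagen chain genes were too low to be tested. The number of genes called was 1 with edgeR on all mice, 601 with DESeq2, 526 with DESeq2 and shrunken fold changes, 639 with every gene that had at least 1 count, 54 with limma-voom on 21 libraries and 31 with the technical library number as a block as well (0.377% and 0.216% of all genes tested). It was 48, 39 and 77 with technical library 1, 2 or 3 only, 1 to 936 with each mouse left out (936 without Notch3-/- mouse 3), and 0 with the k-labelled mice or the hepatocyte covariate. The number of collagen chain genes called, 0 with edgeR on all mice, was 4 with DESeq2, 3 with shrunken fold changes, 3 with every gene, 2 with limma-voom and 2 with its block, 0 with technical library 1 (0.427% of all genes), 1 with technical library 2 (0.339%), 2 with technical library 3 (0.651%), and 0 to 3 with each mouse left out. Deviations of same-numbered libraries from the mean of their mouse were hardly correlated between groups (Pearson r -0.0583, -0.0227 and -0.0448). These values are across 14324 genes, which are not independent, and cannot exclude a shared effect of library number on some genes. The median log2 fold change of the tested collagen genes, 0.39, was 0.30 to 0.42 with each mouse left out, 0.24 and 0.54 with technical libraries 1 and 2, 0.23 with the covariate, 0.30 without Notch3-/- mice 1 and 2 (30 genes tested) and 0.01 after shrinkage (42 genes with counts). Over the 25 genes of the edgeR fit, the last 2 were 0.32 and 0.06. Collagen genes higher at an unadjusted p lower than 0.05 numbered 9 of 25 (7.34% of all genes), 8 to 11 with each mouse left out (4.29% to 11.6%), and 2 of 20 with technical library 1 (4.59%). Those with every Notch3-/- mouse above every control numbered 7 of 25 (4.57% of all genes), 7 to 9 with each mouse left out (6.26% to 15.3%), 2 of 20 and 4 of 20 with technical libraries 1 and 2 (3.28% and 4.51%), and 16 of 30 for the lone mouse without Notch3-/- mice 1 and 2 (3080 of 15395 genes), and they were not counted for limma-voom or the covariate. Of 427 log2 fold changes of single genes under alternatives, 393 kept their direction and side of the threshold, 21 passed it, 2 no longer did and 11 turned direction. The 2 were Notch3 at -3.29 in the k-labelled mice (edgeR FDR 0.206) and -3.37 with the covariate (edgeR FDR 0.139). Col16a1 turned to -0.08 without control mouse 3, -0.04 without Notch3-/- mouse 3, -0.18 with technical library 1 and -0.06 with technical library 3. Col15a1 turned to -0.10, Col18a1 to -0.22, Col14a1 to -0.24, P4hb to -0.31 and Bmp1 to -0.13 with the covariate. Without Notch3-/- mice 1 and 2, Col15a1 turned to -0.07 and P4hb to -0.12. The causes of these turns were not tested. Shrunken fold changes and the fit without Notch3-/- mice 1 and 2 were added after seeing the data.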
